A study of Homo sapiens with 6 samples.

Results

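Of the 10 genes that encode the enzymes of fatty acid synthesis and desaturation examined in T24 cells, 6 had lower mRNA levels after TRIM28 knockdown, 1 had a higher level and 3 did not pass the test. Many other genes also moved, since 20.5% of all genes tested were called lower and 21.3% higher. The set was chosen by gene name from the count table and holds ACLY, ACSS2, ACACA, FASN, SCD, ELOVL1, ELOVL5, ELOVL6, FADS1 and FADS2, which are 10 of the 78932 genes listed. All 10 were tested, as part of the 18474 genes that reached 10 counts in 3 or more libraries. Polyadenylated RNA was sequenced from T24, a human urothelial carcinoma cell line grown in 1640 medium with fetal bovine serum and antibiotics. In 3 cultures the cells had been transfected with a control siRNA (siNC) and in 3 with an siRNA against TRIM28 (siTRIM28), and the labels give batch 1 for all of them. The sources used here do not say which of the study's TRIM28 siRNAs was used or how long after transfection the cells were harvested, so effects of that siRNA on other transcripts cannot be told apart from those of TRIM28 loss.

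Cytosolic fatty acid synthesis starts from acetyl-CoA, which ACLY releases from citrate and ACSS2 makes from acetate. ACACA carboxylates acetyl-CoA to malonyl-CoA, the committed step, and FASN joins these units into palmitate. At the endoplasmic reticulum, elongases (ELOVL) lengthen the chain and desaturases (SCD, FADS1, FADS2) introduce its double bonds, and many of these genes are known targets of the sterol regulatory element-binding proteins (SREBPs). TRIM28 is a scaffold protein through which zinc finger repressors of the KRAB class silence chromatin.

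The promoter sequences of SCD, ELOVL6 and ELOVL1 are shown because these genes had the largest changes of the 10, the first and second downward and the last upward. Each runs 5′ to 3′ on the strand of the gene from 250 bases before to 50 bases after its start in RefSeq (GRCh38.p14). Capitals mark the CCAAT box (CCAAT, bound by NF-Y) and the GC box (GGGCGG, bound by Sp1 and its relatives), each searched on both strands, so that a box on the other strand reads ATTGG or CCGCCC. The SCD window lies on the plus strand at chr10:100346983-100347282, the ELOVL6 window on the minus strand at chr4:110198566-110198865 and the ELOVL1 window on the minus strand at chr1:43367962-43368261.
SCD: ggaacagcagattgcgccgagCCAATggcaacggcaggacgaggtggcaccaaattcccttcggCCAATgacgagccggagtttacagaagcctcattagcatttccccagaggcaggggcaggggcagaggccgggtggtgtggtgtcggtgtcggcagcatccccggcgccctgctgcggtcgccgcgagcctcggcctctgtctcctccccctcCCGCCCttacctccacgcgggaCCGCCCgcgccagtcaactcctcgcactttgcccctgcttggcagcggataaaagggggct
ELOVL6: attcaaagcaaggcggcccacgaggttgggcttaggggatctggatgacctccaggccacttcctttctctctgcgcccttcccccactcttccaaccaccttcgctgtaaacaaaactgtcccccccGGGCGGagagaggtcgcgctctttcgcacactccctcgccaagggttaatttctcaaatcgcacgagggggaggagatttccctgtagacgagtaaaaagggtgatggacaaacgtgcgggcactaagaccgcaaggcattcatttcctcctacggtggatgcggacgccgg
ELOVL1: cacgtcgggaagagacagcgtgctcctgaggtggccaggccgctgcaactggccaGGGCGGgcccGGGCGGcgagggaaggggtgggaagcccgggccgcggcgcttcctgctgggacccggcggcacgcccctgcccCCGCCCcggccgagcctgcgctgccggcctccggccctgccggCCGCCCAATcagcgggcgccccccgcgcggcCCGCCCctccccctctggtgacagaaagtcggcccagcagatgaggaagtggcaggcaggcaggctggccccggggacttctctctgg

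In the SCD window, CCAAT boxes began 229 and 186 bases before the start and GC boxes 33 and 11 bases before it. The ELOVL6 window held 1 GC box, 122 bases before the start, and no CCAAT box. The ELOVL1 window held 5 GC boxes and 1 CCAAT box, 65 bases before the start, which shared bases with the GC box that began 69 bases before it. RefSeq windows were matched for 9 of the 10 genes (14 windows), all but FASN. A CCAAT box was present for 7 of these 9 genes, against 34.6% of all 35116 promoter windows, and a GC box for 8 of 9, against 44.95%. The SREBP element searched (TCACNCCAC, both strands) was present in 1.13% of all windows and in none of the 14, and the E-box CACGTG was present in 7.26% of all windows and among the 9 genes for ELOVL5 only. These matches describe letters in a window and are not evidence of binding, and a gene with several windows had more bases searched than a gene with 1.

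TRIM28 itself had 1419, 1393 and 1382 counts in the siNC libraries and 130, 96 and 109 in the siTRIM28 libraries. Its log2 fold change was -3.54 (SE 0.0723), with an adjusted p of 1.03e-10. Unless another test is named with it, each adjusted p given here is from the quasi-likelihood test of edgeR. It was adjusted by the Benjamini-Hochberg method over all genes tested. Total counts ranged from 11712623 to 14018052 per library. Replicates 1 and 2 of siNC and replicates 2 and 3 of siTRIM28 were close to sampling noise of each other (chi-square per degree of freedom 1.076 and 1.218), whereas siNC replicate 3 and siTRIM28 replicate 1 stood apart from the rest of their groups (4.17 to 6.25). Of 6 epithelial markers, KRT7, KRT8 and KRT18 were tested, while KRT19, EPCAM and CDH1 had at most 7 counts in any library. Of 8 markers of urothelial differentiation, UPK1A and TP63 passed the filter and UPK1B and KRT20 were at 0 throughout, and all 3 mesenchymal markers, with VIM among them, were tested. Summed CPM of the epithelial markers was 187.8 to 193.2 in siNC and 207.2 to 214.4 in siTRIM28, that of the urothelial differentiation markers 1.31 to 2.80 and 4.53 to 5.21, and that of the mesenchymal markers 1146 to 1159 and 1397 to 1513. Unlike the CPM given below, these sums are per 1000000 total counts of each library, with no further scaling. These sums moved with the knockdown, and their part in the results below was not tested. VIM made up most of the mesenchymal sum and was called higher (log2 fold change 0.33, adjusted p = 2.56e-05). CDH2 and FN1 were not called (adjusted p = 0.149 and 0.113). Among the epithelial markers, KRT7 and KRT8 were called higher (adjusted p = 0.0126 and 0.0354) and KRT18 was not (adjusted p = 0.21). The urothelial sum held few counts, and its genes did not all move the same way. UPK1A had 17, 15 and 4 counts in siNC and 58, 38 and 34 in siTRIM28. TP63 had 9, 4 and 6 counts in siNC and 11, 15 and 10 in siTRIM28. GATA3, below the filter, had 10, 10 and 4 counts in siNC and 1, 4 and 4 in siTRIM28. No marker of leukocytes, endothelium, adipocytes or hepatocytes passed the filter. In a bulk culture, fewer cells that express a gene and less RNA per cell cannot be told apart.

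Across the 10 enzymes, 7 passed an adjusted p of 0.05, against 41.8% of all genes tested. Lower levels in siTRIM28 were called for 6 of the 10, against 20.5% of all genes, and a higher level for 1, against 21.3%. The libraries of the 2 groups did not overlap in CPM (counts per 1000000 library counts, scaled by the trimmed mean of M values) for those 7 genes, against 52% of all genes tested. The median log2 fold change of the 10 was -0.24, and that of all genes tested was 0.02. Only SCD among the 10 also fell by a log2 fold change of 0.58 or more, a share close to the 7.51% of all genes that did so.

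**Figure D1:**
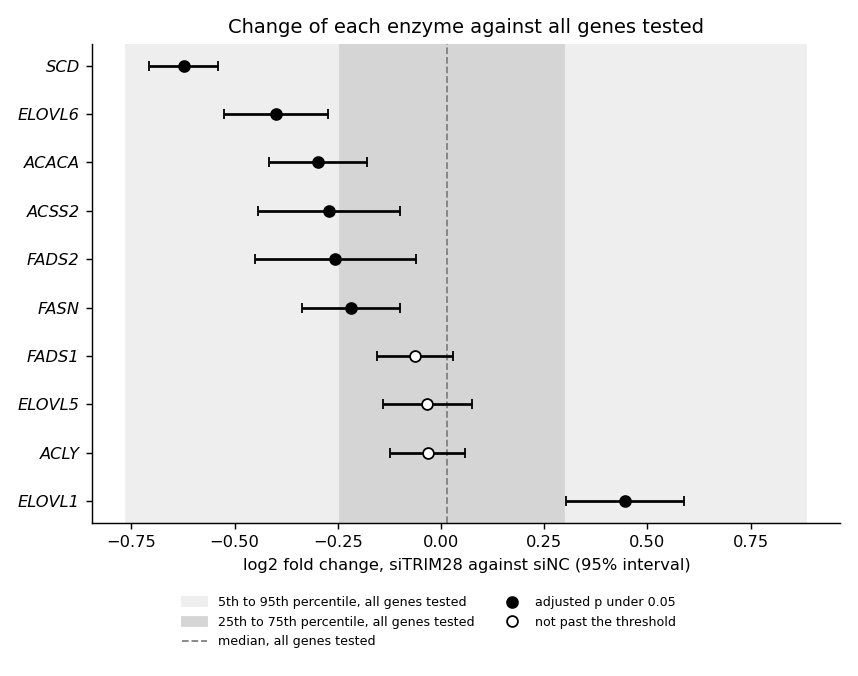
Log2 fold change of each enzyme (points) with its 95% confidence interval (bars), siTRIM28 against siNC, over shaded bands for the 5th to 95th and 25th to 75th percentiles of all genes tested. Filled points passed an adjusted p of 0.05. SCD at -0.62 lay furthest left and ELOVL1 at 0.45 furthest right, and the intervals of ACLY, ELOVL5 and FADS1 included 0.

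At the supply of acetyl-CoA, the acetate enzyme ACSS2 fell and no change of the citrate enzyme ACLY was detected. ACLY (ATP citrate lyase, chr17:41866917-41930542) had 156.2, 158.5 and 153.7 CPM in siNC and 156.8, 150.9 and 150.2 CPM in siTRIM28. The groups overlapped, since siTRIM28 replicate 1 lay among the siNC libraries. The log2 fold change of ACLY was -0.03 (95% interval -0.12 to 0.06, adjusted p = 0.56). ACSS2 (acetyl-CoA synthetase of cytosol and nucleus, chr20:34872146-34927205) had 18.2, 17.6 and 20.8 CPM in siNC and 15.6, 15.7 and 15.5 CPM in siTRIM28. All 3 siTRIM28 libraries lay below all siNC libraries and had an SD of 0.0904 CPM, while siNC replicate 3 was the highest of its group. ACSS2 fell by 17.2%, with a log2 fold change of -0.27 (SE 0.0782, adjusted p = 0.0152). Without siNC replicate 3 the value was -0.20 and the call was lost (adjusted p = 0.0978), and it was lost as well with siTRIM28 replicate 1 also left out (-0.20, adjusted p = 0.0929) and with DESeq2 (adjusted p = 0.0851). In the annotation ACSS2 shares 677 bases with the opposite-strand gene GGT7. GGT7 had 90.5 mean counts, against 225 for ACSS2, and a log2 fold change of 0.37 (adjusted p = 0.0237). Without a stated strand setting, reads of the shared bases cannot be assigned to one of these 2 genes. The ACLY to ACSS2 ratio, on the log2 scale of CPM, was 3.09, 3.16 and 2.88 in siNC and 3.32, 3.25 and 3.26 in siTRIM28.

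The enzymes of chain synthesis both fell by modest amounts. ACACA (acetyl-CoA carboxylase, chr17:37084992-37406818) had 54.4, 55.2 and 53.6 CPM in siNC and 44.9, 44.0 and 43.8 CPM in siTRIM28. The spread within either group was small (SD 0.778 and 0.585 CPM, n = 3 each) beside the difference between them, and the mean fell by 10.2 CPM. ACACA fell by 18.7%, with a log2 fold change of -0.30 (SE 0.0547, adjusted p = 0.00101). FASN (fatty acid synthase, chr17:82078338-82098146) had 82.0, 76.1 and 78.2 CPM in siNC and 64.7, 69.9 and 68.6 CPM in siTRIM28. These groups did not overlap either, and siTRIM28 replicate 1 was the lowest library. FASN fell by 14.04%, with a log2 fold change of -0.22 (SE 0.0544, adjusted p = 0.00698). The calls of both genes held under each alternative tried, with FASN between -0.25 and -0.18 and ACACA between -0.32 and -0.26. Of the genes tested, 27.2% had a lower log2 fold change than FASN and 21.0% a lower one than ACACA.

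**Figure D2:**
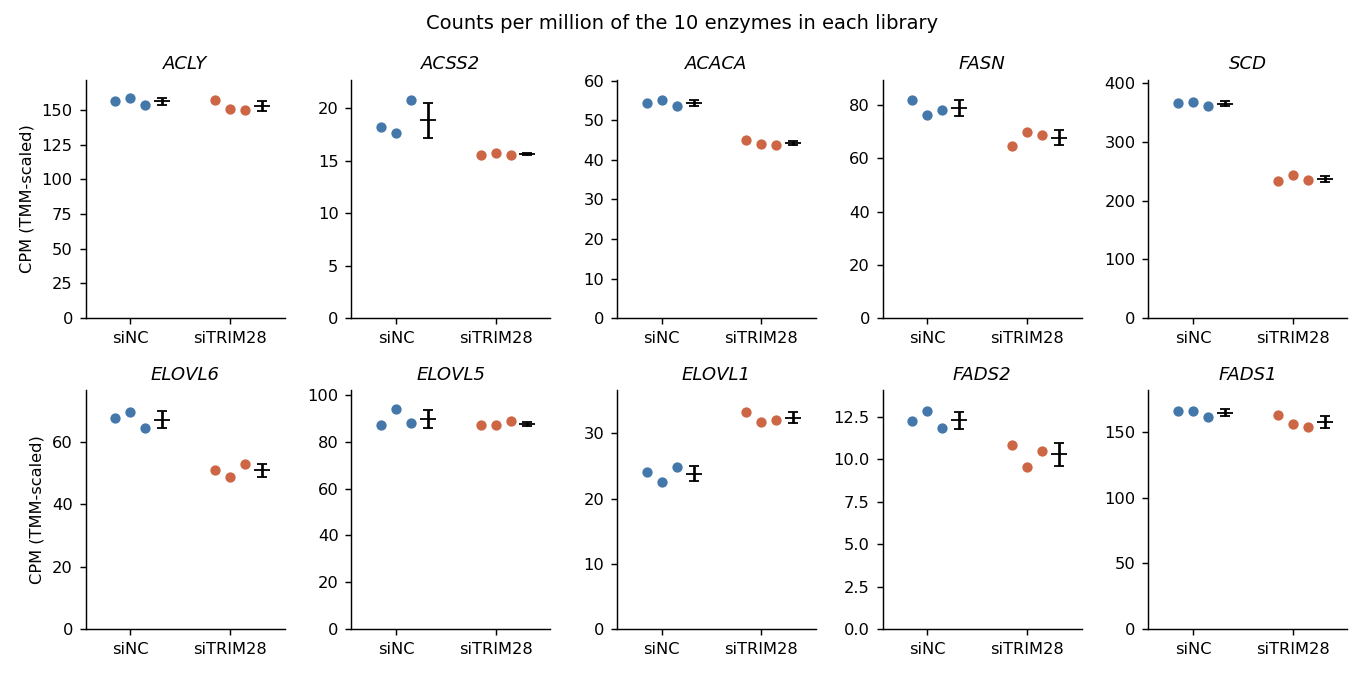
CPM (y axis, from 0) of each enzyme in the 3 siNC and 3 siTRIM28 libraries (points, replicates 1 to 3 from left to right), with the mean ± SD in black. The groups are separate for ACSS2, ACACA, FASN, SCD, ELOVL6, ELOVL1 and FADS2, and they overlap for ACLY, ELOVL5 and FADS1.

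Among the desaturases, the fall of SCD stood at -0.62 while FADS1 did not pass the test. SCD (stearoyl-CoA desaturase, chr10:100347233-100364826) makes oleate and palmitoleate from saturated acyl-CoA and was the most abundant of the 10 transcripts. It had 5076, 5100 and 4603 counts in siNC and 3256, 2878 and 2786 counts in siTRIM28. In CPM this was 365.5, 368.4 and 360.9 in siNC and 232.5, 243.1 and 235.3 in siTRIM28, so that the gap between the groups far exceeded the spread within either (SD 3.77 and 5.46). SCD fell by 35.1%, with a log2 fold change of -0.62 (95% interval -0.71 to -0.54, adjusted p = 2.23e-07), and 7.55% of all genes tested had a lower value. Alternatives gave -0.64 to -0.59. No annotated gene of the table overlapped SCD, and the pseudogene SCDP1 held 2 to 6 counts per library.

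FADS1 and FADS2 act at separate steps of polyunsaturated fatty acid synthesis, FADS2 at the entry and FADS1 after an elongation. FADS1 (chr11:61799627-61829309) had 166.2, 166.1 and 161.3 CPM in siNC and 162.7, 155.6 and 153.9 CPM in siTRIM28. The groups overlapped at siTRIM28 replicate 1, and the log2 fold change was -0.06 (95% interval -0.16 to 0.03, adjusted p = 0.25). With siNC replicate 3 and siTRIM28 replicate 1 left out, FADS1 was called lower at -0.10 (adjusted p = 0.0181). FADS2 (chr11:61792980-61867354) had 12.2, 12.9 and 11.8 CPM in siNC and 10.85, 9.543 and 10.47 CPM in siTRIM28. The groups did not overlap, but this was the least covered of the 10 genes, with 113 to 178 counts per library. FADS2 had a log2 fold change of -0.26 (SE 0.0889, adjusted p = 0.0365). That call was lost in 12 of 17 alternatives, among them DESeq2 (adjusted p = 0.185) and leaving out any siNC library or siTRIM28 replicate 2 or 3. The value was -0.28 to -0.21 where the call was lost and -0.33 to -0.26 where it held. In the annotation the span of FADS2 contains all 29683 bases of FADS1 on the opposite strand, and FADS1 had a mean of 2101 counts against 148 for FADS2. It also shares 4253 bases on the same strand with FEN1, a flap endonuclease gene with 923.2 mean counts and a log2 fold change of 0.29. Whether the counting used strand is not given in the sources used here, so the values of FADS2 are uncertain.

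Of the elongases, ELOVL6 fell, ELOVL1 rose and ELOVL5 did not pass the test. ELOVL6 (chr4:110045846-110199199), which elongates palmitate to stearate, had 67.5, 69.5 and 64.3 CPM in siNC and 51.0, 48.7 and 52.9 CPM in siTRIM28. The groups did not overlap, and ELOVL6 fell by 24.2%, with a log2 fold change of -0.40 (SE 0.0578, adjusted p = 0.000185). ELOVL5 (chr6:53267398-53348926), which elongates polyunsaturated chains, had 87.1, 94.0 and 87.8 CPM in siNC and 87.2, 87.0 and 88.7 CPM in siTRIM28. Its groups overlapped, with siNC replicate 2 above the other five libraries, and its log2 fold change was -0.03 (95% interval -0.14 to 0.07, adjusted p = 0.627). ELOVL1 (chr1:43363398-43368025), which makes saturated very long chains for sphingolipids, had 24.1, 22.5 and 24.9 CPM in siNC and 33.4, 31.8 and 32.1 CPM in siTRIM28. Every siTRIM28 library lay above every siNC library. ELOVL1 rose by 36.2%, with a log2 fold change of 0.45 (SE 0.0650, adjusted p = 0.000199), and the calls of ELOVL1 and ELOVL6 held in each alternative. ELOVL1 shares 548 bases at its 5′ end with the opposite-strand gene MED8-AS1, whose annotated span covers the promoter window printed above. MED8-AS1 had 113.7 mean counts and also rose, by 0.51 on the log2 scale (adjusted p = 0.00358), and without a stated strand setting the reads of the shared bases cannot be assigned to one of them. ELOVL6 likewise shares 1277 bases with the opposite-strand gene ENSG00000288913, which had 121.8 mean counts and a log2 fold change of -0.27 (adjusted p = 0.0506).

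The difference between members was examined as log2 ratios of CPM within each library, for 5 pairs. The ELOVL6 to ELOVL1 ratio was 1.48, 1.62 and 1.37 in siNC and 0.61, 0.62 and 0.72 in siTRIM28, a difference of -0.84. The SCD to FASN ratio was 2.15, 2.27 and 2.21 in siNC and 1.84, 1.80 and 1.78 in siTRIM28, a difference of -0.41. Both ratios were lower in every siTRIM28 library than in any siNC library. The other differences were -0.47 for ELOVL5 to ELOVL1, 0.24 for ACLY to ACSS2 and 0.19 for FADS1 to FADS2, and the groups did not overlap for any of the 5. The exact two-sided permutation test gave p = 0.1 for each, also 0.1 after adjustment over the 5, which is the smallest p that 3 against 3 libraries allow.

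To compare levels between genes, CPM was divided by the exonic length in the table (RPKM). In siNC the order was SCD at 69.6 ± 0.719 RPKM (SD, n = 3), ACLY at 29.98, ELOVL5 at 23.5, FADS1 at 16.1, ELOVL1 at 9.50, ELOVL6 at 9.23, FASN at 8.45, ACACA at 4.18, ACSS2 at 3.60 and FADS2 at 1.17. ELOVL1 and ELOVL6 overlapped in siNC (8.99 to 9.92 and 8.84 to 9.55 RPKM), and no other neighbours in this order did. In siTRIM28, ELOVL1 at 12.9 RPKM stood above ELOVL6 at 6.99 in every library, and ELOVL6 then overlapped with FASN at 7.27. SCD remained highest at 45.2 RPKM, and FADS2 remained lowest at 0.9751. The length is the union of all annotated exons, which sets the level of genes with many isoforms low, and ranking by CPM moved 6 of the 10 genes. SCD made up 39.7% of the summed RPKM of the 10 genes in siNC and 30.65% in siTRIM28.

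**Figure D3:**
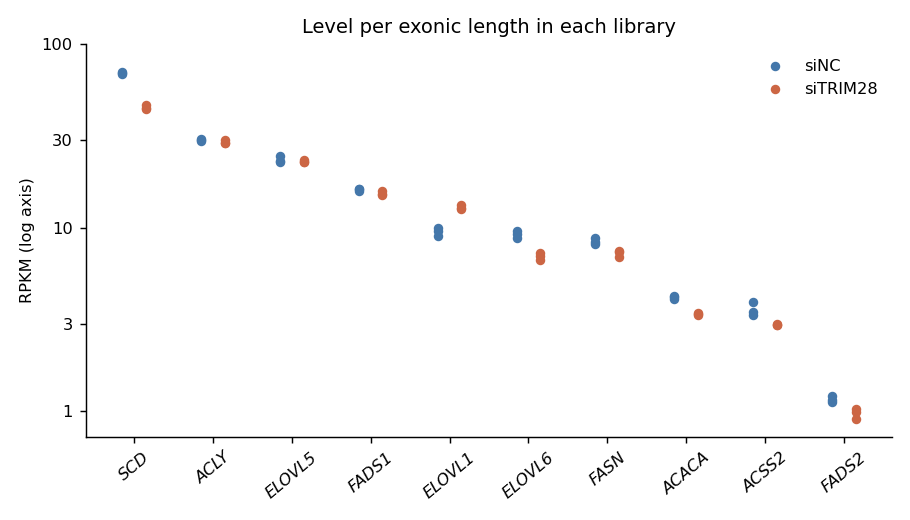
Level per exonic length (RPKM, log axis) of the 10 enzymes in each library, ordered by the siNC mean. SCD is highest and FADS2 lowest in both groups, and ELOVL1 and ELOVL6 overlap in siNC and are separate in siTRIM28.

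No close relative of these enzymes was called lower. Of 10 paralogs, 8 were tested and 4 were called higher, against 21.3% of all genes tested, and their median log2 fold change was 0.25. Calls in either direction, 4 of 8, were close in share to the 41.8% of all genes. ELOVL4, an elongase of very long chains, rose from 7.04 ± 0.782 to 9.22 ± 0.503 CPM (mean ± SD, n = 3 each), which is 0.39 on the log2 scale (adjusted p = 0.0203). SCD5, the other stearoyl-CoA desaturase, rose from 7.55 ± 0.586 to 9.45 ± 0.763 CPM, which is 0.33 on the log2 scale (adjusted p = 0.0357). ACSS1, the mitochondrial acetyl-CoA synthetase, was at 0.27 (adjusted p = 0.01004) and FADS3 at 0.25 (adjusted p = 0.0118). Each of these 4 genes lost its call in at least 3 of 17 alternatives. The number of paralogs called was 1 with DESeq2, with the close pairs summed and without siNC replicate 2, 2 without siNC replicate 1 or siTRIM28 replicate 2, and 0 at an adjusted p of 0.01. ACACB, ACSS3, ELOVL2 and ELOVL7 were tested and did not pass, and FADS6 and ELOVL3 were below the filter.

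Shares of summed RPKM within these families, chosen after the values were seen and given with no test, describe the balance between the relatives. SCD5 was 2.71%, 2.33% and 2.47% of SCD plus SCD5 in siNC and 5.198%, 4.52% and 4.42% in siTRIM28. ELOVL1 was 17.5% ± 1.13 of the summed elongases in siNC and 23.4% ± 0.656 in siTRIM28, ELOVL6 was 17.0% ± 0.578 and 12.7% ± 0.264, and ELOVL5 was 43.2% ± 1.01 and 41.7% ± 0.489. ACSS1 was 30.4% ± 1.47 of the acetyl-CoA synthetases in siNC and 38.7% ± 1.40 in siTRIM28. The groups did not overlap for any of these shares, and each share falls or rises by construction when another gene of its family moves.

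The genes that supply electrons, carbon and elongation partners to the 10 enzymes were described from 7 further lists, and across all 8 lists with the paralogs 42 of 51 genes were tested, 7 were called higher and 14 lower, with a median of -0.06. In all 21 of the 42 were called, a share near the 41.8% of all genes tested, against which the counts of these short lists are to be read, with 20.5% of all genes called lower and 21.3% higher. Of 3 genes of cytochrome b5 and its reductase, listed for the electron supply of the desaturases, 2 fell, against 20.5% of all genes called lower. The microsomal cytochrome b5 gene was not among these 2. CYB5R3, the reductase of cytochrome b5, had 93.9 ± 3.93 CPM in siNC and 39.7 ± 3.42 in siTRIM28, a log2 fold change of -1.24 (SE 0.0683, adjusted p = 9.79e-08). CYB5B, a cytochrome b5 of the outer mitochondrial membrane, was at -0.43 (adjusted p = 0.000297), and CYB5A, the microsomal form, was at -0.01 (adjusted p = 0.919). CYB5A had 58.7 CPM in siTRIM28 replicate 1 against 44.4 and 46.2 CPM in the other siTRIM28 libraries and 49.3 to 51.5 CPM in siNC. Without that library CYB5A was called lower at -0.15 (adjusted p = 0.0488), and without siNC replicate 3 as well it was at -0.14 and not called (adjusted p = 0.0595).

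Of 6 partners that complete the elongation cycle, 5 were tested and 3 fell, against 20.5% of all genes called lower. HACD3, a dehydratase of 3-hydroxyacyl-CoA, had 250.6 ± 3.23 CPM in siNC and 145.1 ± 10.3 in siTRIM28, a log2 fold change of -0.79 (SE 0.0520, adjusted p = 3.93e-07). The ketoacyl-CoA reductase HSD17B12 was at -0.32 (adjusted p = 0.00212) and HACD2 at -0.29 (adjusted p = 0.0048). The enoyl-CoA reductase TECR was at 0.28 and did not pass (adjusted p = 0.0801). It had 84.8 CPM in siTRIM28 replicate 1 against 56.8 and 61.7 CPM in the other siTRIM28 libraries, and without that library the value was 0.08 (adjusted p = 0.282). TECR was called higher in 4 alternatives that kept that library, namely upper-quartile scaling (0.31, adjusted p = 0.0491), no filter (0.27, adjusted p = 0.000546), the replicate block (0.26, adjusted p = 0.0294) and without siTRIM28 replicate 2 (0.39, adjusted p = 0.0167).

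Of 6 genes of citrate and NADPH supply, 3 fell, against 20.5% of all genes called lower. PGD, the phosphogluconate dehydrogenase of the pentose phosphate pathway, had 144.9 ± 2.59 CPM in siNC and 93.5 ± 1.99 in siTRIM28, a log2 fold change of -0.63 (adjusted p = 5.59e-07). Citrate synthase CS was at -0.42 (adjusted p = 0.000641) and the mitochondrial citrate carrier SLC25A1 at -0.31 (adjusted p = 0.00913, or 0.0659 with the close pairs summed), whereas ME1 and IDH1 did not pass.

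Neither of the 2 long-chain acyl-CoA synthetases tested passed, with ACSL1 at 0.00 and ACSL3 at -0.12 (adjusted p = 0.978 and 0.0824), and ACSL4, ACSL5 and ACSL6 were below the filter. Of 3 tested genes of acyl-CoA release and binding, 2 fell, against 20.5% of all genes called lower. They were the thioesterase ACOT7 at -0.24 (adjusted p = 0.0155) and the fatty acid binding protein FABP5 at -0.21 (adjusted p = 0.00443). In the separate mitochondrial pathway of fatty acid synthesis 2 of 6 genes fell, against the same 20.5%. They were the enoyl reductase MECR at -0.65 (adjusted p = 0.00144) and the malonyl transferase MCAT at -0.62 (adjusted p = 0.0171). The MCAT call was lost without siTRIM28 replicate 2 and with DESeq2, the ACOT7 call without siNC replicate 1 and the FABP5 call with the close pairs summed (adjusted p = 0.0753), and MCAT and ACOT7 did not reach an adjusted p of 0.01.

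Among 11 regulators, 9 were tested, 2 fell and 2 rose, shares near the 20.5% of all genes called lower and the 21.3% called higher. SREBF1, which encodes the SREBP best known for fatty acid synthesis genes, had 31.1 ± 1.17 CPM in siNC and 24.1 ± 1.06 in siTRIM28, a log2 fold change of -0.37 (adjusted p = 0.000864). SREBF2, which encodes the SREBP best known for cholesterol synthesis genes, was also at -0.37 (adjusted p = 0.000178). MLX, the shared partner of the carbohydrate-responsive factors, was at 0.39 (adjusted p = 0.000645), and NR1H2, which encodes liver X receptor beta, was at 0.20 (adjusted p = 0.00668, or 0.0513 with the close pairs summed). NR1H3, the other liver X receptor gene, was at -0.35 (adjusted p = 0.132), and PPARG, the receptor gene of adipocyte lipid storage, was at 0.07 (adjusted p = 0.728), and neither passed. Without siNC replicate 3, NR1H3 was called lower at -0.49 (adjusted p = 0.0324). These are mRNA levels, and SREBPs are activated by cleavage, which was not measured here. The genes of these lists that are named without having passed the test were chosen after their values were seen.

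The genes whose levels were most like those of SCD over the 6 libraries included BIRC5, SMYD5, FDFT1 and WBP11, among 11339 genes with a symbol and at least 50 mean counts. The measure of likeness was Pearson's r of log2 CPM, which was at least 0.9997 for these 4 and over 0.99 for 416 genes. The libraries fall into their 2 groups, so that r follows the difference between the groups, and no test was made. FDFT1, the squalene synthase gene of cholesterol synthesis, had a log2 fold change of -0.51, and BIRC5, which encodes survivin, had -1.70.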

How the data were processed

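Per the submitters' processing notes, the reads of the 6 stranded poly(A) libraries were handled with fastp 0.23.1, STAR 2.7.6a, featureCounts and GRCh38. The authors deposited a table of raw read counts for each gene with its coordinates and exonic length, and whether counting used strand or removed duplicates is not given in the sources used here. A table of the authors' differentially expressed genes was not used. The labels call the libraries biological replicates.

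After TMM scaling, condition was tested as a single term by the quasi-likelihood functions of edgeR 4.0.16 (R 4.3.3) for genes with at least 10 counts in 3 libraries, with Benjamini-Hochberg adjustment over all 18474 genes and a threshold of 0.05, after the code was tested on simulated data. The common biological coefficient of variation was 0.0733. SE and 95% intervals come from the quasi-likelihood fit. Ratios used log2 CPM with a prior count of 2 and an exact permutation test. Intervals and tests cover the spread between these libraries. They count the libraries of each close pair as separate replicates, as the labels do, and whether these libraries are independent was not tested. Alternatives were scaling by RLE, by the upper quartile or by total counts, DESeq2 1.42.0, limma-voom 3.58.1, other filters, a replicate block, leaving out each library, summing the close pairs and an adjusted p of 0.01. A fit without siNC replicate 3 and siTRIM28 replicate 1 was chosen after seeing the data.

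The 10 enzymes, the lists and the tests were chosen with earlier results of these data known. Genes named were the 10 enzymes, list genes that passed, with values for up to 4 per list, the 5 genes most like SCD, and TRIM28. Some genes that this rule names are not reported here. Promoter sequences are from RefSeq (GRCh38.p14).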

Additional observations from a re-analysis of the deposited data

How the results depend on the processing

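The number of the 10 enzymes called was 5 to 7 under all alternatives and when leaving out each library, and the number of all genes called was 5393 to 8252. SCD, ELOVL6, ACACA, FASN and ELOVL1 kept their direction and call in all 17, whereas the calls of FADS2, ACSS2 and FADS1 changed as given in the results. Upper-quartile scaling moved ACLY to 0.001406 (adjusted p = 0.983) and ELOVL5 to 0.001363 (adjusted p = 0.986), values that had been slightly below 0 and had not been called. Of the uncalled genes of the related lists named above, CYB5A and ACSL1 turned to 0.01964 and 0.03059 with upper-quartile scaling, 0.004688 and 0.01522 with total-count scaling and 0.03271 and 0.006801 with the close pairs summed. Leaving out 1 library, or both that stood apart, gave -0.1524 to 0.06114 for CYB5A, -0.07717 to 0.04263 for ACSL1 and -0.004039 to 0.2893 for PPARG, and no value that turned was called. Upper-quartile scaling also moved the share of higher calls among all genes from 51.1% to 56.6%. Replicates with the same number did not deviate together (r = 0.0658, -0.0242 and 0.0506 across 12828 genes). With only 3 libraries per group, these values cannot settle whether the numbers pair the cultures. With the replicate block, 6 of the 10 enzymes, 22 genes of the related lists and 7910 genes in all were called, and FADS2 was the enzyme that lost its call (adjusted p = 0.0576). Leaving out each library gave differences of -0.43 to -0.37 for the SCD to FASN ratio and -0.90 to -0.78 for the ELOVL6 to ELOVL1 ratio.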
